A study of Mus musculus with 6 samples.

Results

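Glycosyltransferases build the sugar chains of proteins and lipids one sugar at a time, and a set of epimerases, sulfotransferases and sulfatases then edits the chains called heparan sulfate and chondroitin sulfate. Here the transcripts of 115 such genes, of 18193 named genes on the array, were followed in neural stem cells of young and old mice. The genes were taken by symbol alone: all whose name starts with Galnt, B3gnt, B3galt, B4galt, St3gal, St6gal, St8sia, Fut and a digit, Mgat, Hs3st, Hs6st, Ndst, Chst, Chsy, Ext and a digit or Extl, with Hs2st1, Glce, Sulf1 and Sulf2. One of the 115, Fut4-ps1, carries a pseudogene's name. A gene was read through its brightest probe set by the mean of all arrays, out of 224 probe sets that name a single one of these genes.

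Total RNA was hybridised to 6 Affymetrix arrays, of which 3 carried RNA of the group YoungNSC, from mice of 6 weeks, and 3 that of OldNSC, from mice of 9 months. All mice were of the strain C57BL/6JRj, with no genetic change or treatment named, and the cells of both groups are labelled as neural stem cells, which divide to keep their own pool and also supply new neurons and glia. The sources used here do not state how cells were isolated or grown, their sex, or whether replicates came from separate animals, so p-values measure only how these samples spread, and that spread may be technical. The series asks how age is shared out when such cells divide, and the comparison of ages asks which transcripts differ between old and young cells.

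Heparan sulfate chains grow on core proteins at the cell surface and in the matrix, where the pattern of sulfate groups along the chain decides which growth factors and morphogens bind, among them fibroblast growth factors, Wnt and Hedgehog proteins. Chondroitin sulfate is the other large class of such chains in the brain and a main component of the matrix around neural progenitors. N-glycans, mucin-type O-glycans and the sialic acid-bearing glycolipids called gangliosides form the rest of the cell coat, and several of their end structures, such as the Lewis X sugar, the gangliosides and polysialic acid, serve as surface markers of neural stem cells and of their descendants.

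Values are log2 levels from GCRMA, which draws dim probe sets down to a common value, here 2.14, so that replicate spread is understated there and a rise out of it has an uncertain size. A probe set was kept and tested if 3 or more of the 6 arrays read above log2 4. Between 38.3 and 40.3% of all probe sets on an array lay at the lowest value. Young and old arrays correlated at r = 0.915 to 0.944 across kept probe sets, which are not independent replicates, against 0.979 to 0.993 within young and 0.995 within old pairs, and young replicate 2 stood farthest out on the second principal component (9.93% of the variance). The hybridisation controls, RNA of fixed amount, were lower on old arrays (12.28 ± 0.098 against 13.24 ± 0.28, log2, SD, n = 3, exact permutation p = 0.1, two-sided, which no split of 6 arrays can go below). The 3′ minus 5′ difference of the actin control probe sets, a sign of RNA quality, was 0.62 ± 0.043 on young and 0.69 ± 0.036 on old arrays (log2, SD, n = 3, the same exact p of 0.1). The part of either in any result was not tested. Markers of the labelled cell type were present: 9 of 10 listed genes were kept, 1 higher and 2 lower in old cells, with a summed log2 level of 109.7 to 110.0 on young and 103.2 to 104.0 on old arrays. All 7 microglia, 5 endothelial and 4 oligodendrocyte markers were under the filter, with Aif1, Cx3cr1, Csf1r, Pecam1, Cldn5, Cdh5, Mog and Mag at 2.14 on all 6 arrays. Of 8 neuroblast and neuron markers the 4 kept were lower in old cells (summed log2 level 40.3 to 44.1 on young and 23.6 to 24.8 on old arrays), with Stmn2 and Rbfox3 at 2.14 throughout. Of 6 oligodendrocyte progenitor markers 3 were lower (55.6 to 56.0 and 43.7 to 44.4), with Sox10 at 2.14 on every array. Of 5 astrocyte markers 3 were higher and 1 lower (32.9 to 35.2 and 39.2 to 41.4), with Gjb6 at 2.14, and of 4 ependymal markers 2 were higher and 1 lower (16.6 to 18.6 and 19.2 to 20.9). Of 7 mural and mesenchymal markers 1 was kept, Acta2, and it was lower (19.3 to 20.3 and 17.8 to 19.0), with Pdgfrb, Col1a2 and Lum at 2.14 on every array. Hes5, Neurod1, Snap25, Nkx2-2 and Foxj1 passed the filter through the arrays of one age alone, so their calls were bound to that choice. The marker counts are to be read beside all named genes kept, of which 22.0% were higher and 18.5% lower in old cells by the same test. Some of the lists, such as that of the labelled cell type, lie near these shares. These marker differences run along with every result below, and their part in them was not tested.

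Transcripts of the sugar-chain enzymes were mostly higher in old cells, by small amounts, with a few very large changes. Of the 62 members kept by the filter, 37 rose and 6 fell with age at an adjusted p under 0.05 (limma, Benjamini-Hochberg over all 19858 kept probe sets), and 19 did not pass. Over all 10050 named genes kept, 22.0% were higher and 18.5% lower by the same test, and over all kept probe sets 20.1% and 16.5%. The share of kept members called higher was 59.7% and that called lower 9.68%. The median log2 change of the kept members was 0.33, beside 0.01 over all named genes kept, and 51 of the 62 changes were above 0, beside 51.7% of all named genes. On 43 members every old array lay above every young one, and on 7 every old array lay below, beside 31.8% and 28.2% of all named genes. RNA was measured in bulk, so that fewer cells of a type and less RNA per cell cannot be told apart. Leaving out 1 array gave 26 to 34 members higher and 5 to 7 lower.

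**Figure D1:**
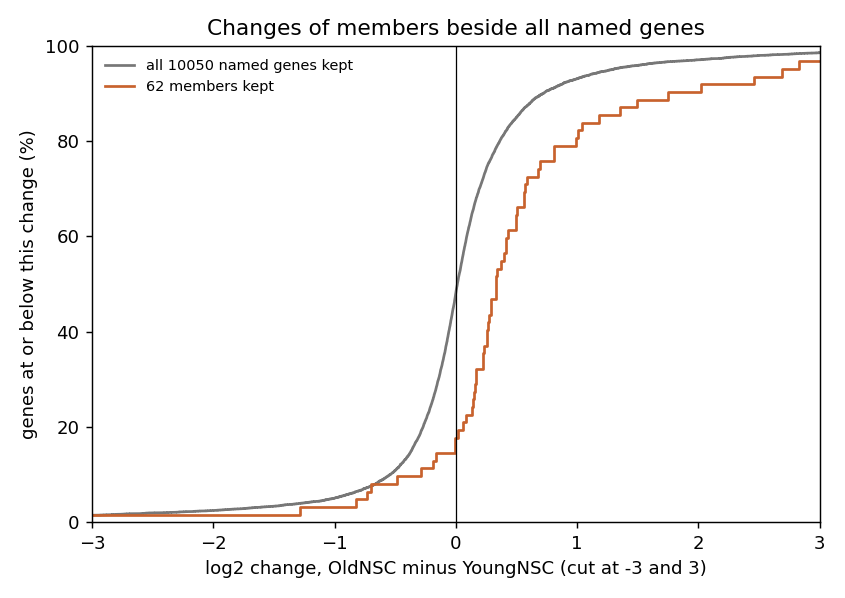
Cumulative share of genes (vertical axis, %) at or below a given log2 change from young to old cells (horizontal axis) for the 62 kept members and for all 10050 named genes kept. The members' curve crosses the middle at 0.33 and that of all genes at 0.01; the axis ends at -3 and 3, so Hs3st1, Chsy3 and B3gnt5 lie outside it.

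Of the 62 kept members, 12 were called higher and 2 lower with a log2 change of at least 1, or 14 of the 43 called. Over all 10050 named genes kept, 665 (6.62%) were called higher and 486 (4.84%) lower by at least that amount, out of 4076 called. The 12 were the sulfotransferases Hs3st1, Chst14 and Chst12, the chondroitin synthase Chsy3, the galactosyltransferases B3galt2, B4galt1 and B4galt4, the GlcNAc transferase B3gnt2, the O-GalNAc transferases Galnt18 and Galnt4, and the sialyltransferases St6galnac4 and St3gal6. Those that fell were the epimerase Glce and the glycolipid GlcNAc transferase B3gnt5. Hs3st1 passed the filter through its old arrays alone, and so had to differ between the ages.

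**Figure D2:**
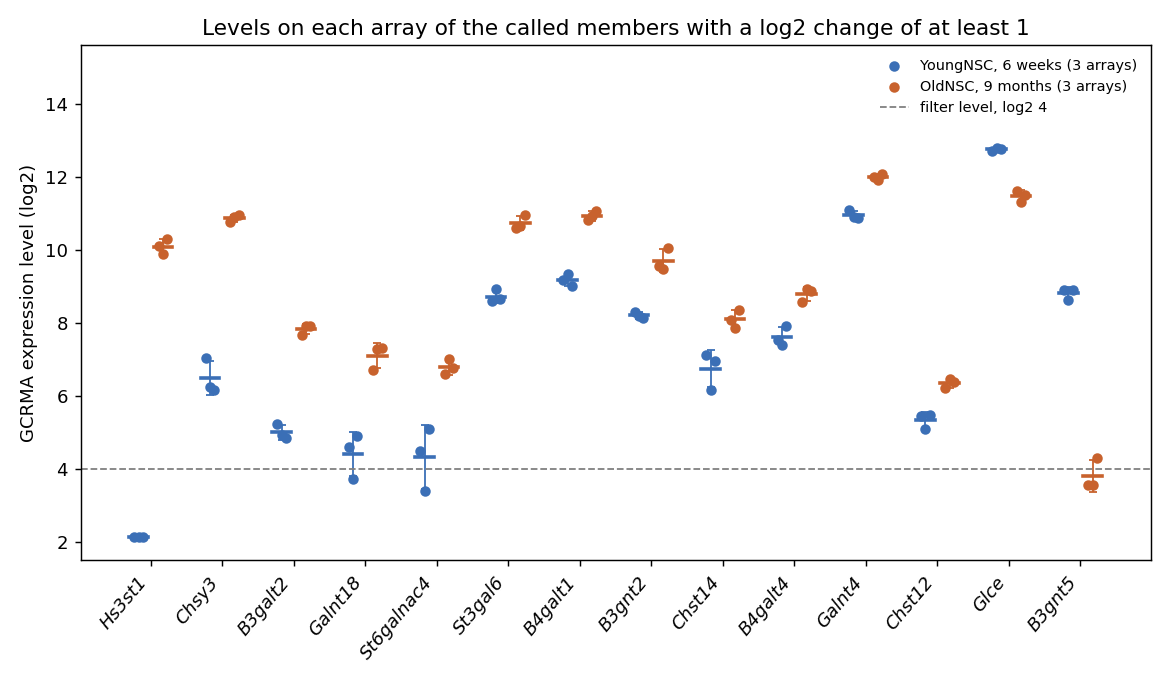
GCRMA expression level (log2) on each of the 6 arrays for the 14 called members with a log2 change of at least 1; points are arrays, bars the mean and SD of 3 arrays per age, and the dashed line the filter level of log2 4. The ages do not overlap for any of the 14, but these were chosen from the same values by adjusted p and size of change. That choice left little room for overlap. Over all named genes kept, every old array lay above every young one for 31.8% and below for 28.2%. Hs3st1 lies at 2.14 on the young arrays, and B3gnt5 lies at 3.56 to 4.30 on the old ones.

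The stretches before the transcription start of the member that rose most, Hs3st1, and of both that fell by more than log2 1 are shown to set their sequences side by side. They are the 250 bases upstream of the start in RefSeq (GRCm38.p6), 5′ to 3′ on the gene's strand, with the GC box GGGCGG, read on both strands, in capitals.
Hs3st1, chr5:39644632-39644881, minus strand: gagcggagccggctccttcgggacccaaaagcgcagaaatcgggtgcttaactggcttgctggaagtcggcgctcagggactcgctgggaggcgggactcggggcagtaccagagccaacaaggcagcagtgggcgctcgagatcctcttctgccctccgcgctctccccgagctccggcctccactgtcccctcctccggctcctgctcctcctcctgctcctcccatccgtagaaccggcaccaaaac
Glce, chr9:62122610-62122859, minus strand: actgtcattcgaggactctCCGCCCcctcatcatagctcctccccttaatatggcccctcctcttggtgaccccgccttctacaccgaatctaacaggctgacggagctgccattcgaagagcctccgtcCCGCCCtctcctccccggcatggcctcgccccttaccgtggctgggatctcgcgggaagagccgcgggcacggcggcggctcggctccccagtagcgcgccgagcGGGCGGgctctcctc
B3gnt5, chr16:19759984-19760233, plus strand: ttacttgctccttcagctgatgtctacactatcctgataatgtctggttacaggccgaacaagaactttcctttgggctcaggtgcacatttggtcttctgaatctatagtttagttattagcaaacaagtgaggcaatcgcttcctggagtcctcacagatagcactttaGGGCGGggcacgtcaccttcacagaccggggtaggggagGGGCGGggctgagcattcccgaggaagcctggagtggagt
The window of Hs3st1 held no GC box, that of Glce 3 and that of B3gnt5 2. Their G and C content was 66.0, 67.2 and 51.2%, and they held 19, 24 and 7 CpG dinucleotides. None of these windows held the letters of a CCAAT box (CCAAT) or a TATA box (TATAAA), also read on both strands. Over the members, 87 of 115 had a RefSeq window, taken at the first start listed for the gene. A GC box stood in 70.2% of the 47 windows of kept members and in 60.0% of the 40 of members under the filter, beside 42.7% of 17491 protein-coding genes. A CCAAT box stood in 48.9% and 17.5% of the same sets, beside 36.3% of protein-coding genes, and a TATA box in 4.26% and 2.50%, beside 12.4%. The median number of CpG dinucleotides was 18 in kept members, 14.5 in those under the filter and 10 over protein-coding genes. Among kept members, the GC box stood in 20 of 30 windows of genes that rose, in 4 of 4 that fell and in 9 of 13 that did not pass. The protein-coding genes were not split by the filter, so kept members stand here beside genes both kept and not. Whether the shares are particular to these members was not tested. These counts describe letters and no binding was measured.

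Heparan sulfate and chondroitin sulfate share the first steps of their making, in which a short linkage of sugars is laid on the core protein. Both members that act there, B4galt7 and B3galt6, which add its first and second galactose, rose in old cells, beside 22.0% of all named genes. B3galt6 read 12.14, 11.98 and 12.04 on the young arrays and 12.66, 12.57 and 12.63 on the old ones, a change of 0.57 ± 0.062 (log2, SE, adjusted p = 0.00202). B4galt7 read 11.85, 11.76 and 11.88 in young and 12.28, 12.23 and 12.27 in old cells, a change of 0.43 ± 0.053 (adjusted p = 0.00287). For both genes every old array lay above every young one, as for 31.8% of all named genes. The other kept probe sets of B3galt6 had changes of 0.92 (adjusted p = 0.0141) and 0.53 (adjusted p = 0.121).

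The enzymes that lengthen the heparan sulfate chain shifted little. Ext2, one subunit of the polymerase that alternates the sugars of the chain, rose by 0.37 (log2, adjusted p = 0.0242), and Extl3, which starts the chain, by 0.16 (adjusted p = 0.0400). Ext1, its partner in the polymerase, had a change of 0.02 ± 0.058 (SE, adjusted p = 0.841) and its ages overlapped. Extl2 had one of 0.15 (adjusted p = 0.0506) with the old arrays all above the young, and its other kept probe set one of 0.25 (adjusted p = 0.0277), and Extl1 lay at 2.14 on all 6 arrays. The call of Ext2 was lost without any 1 of the old arrays, and that of Extl3 without any 1 array other than young replicate 2.

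In the editing of the chain, the N-deacetylase N-sulfotransferases act first, then the epimerase Glce, which turns glucuronic into iduronic acid, and then the O-sulfotransferases. Glce read 12.70, 12.80 and 12.77 on the young arrays and 11.62, 11.30 and 11.50 on the old ones. It was the one heparan sulfate enzyme that fell, by a log2 change of -1.28 ± 0.092 (SE, adjusted p = 0.000525), which is 2.43-fold, and the ages lay far apart beside their spread. Ndst2 read 7.61, 6.86 and 7.50 in young and 8.32, 7.59 and 8.08 in old cells, and its change of 0.68 ± 0.27 did not pass (adjusted p = 0.108), and its ages overlapped. Ndst3 and Ndst4 lay at 2.14 throughout.

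Of the 5 kept O-sulfotransferases of heparan sulfate 4 rose and none fell, beside 22.0% and 18.5% of all named genes. Hs3st1, which adds the rare sulfate that makes the binding site for antithrombin, read 2.14 on each young array and 10.11, 9.88 and 10.29 on the old ones. It went from the lowest value of the array to a level well above the filter on every old array. Against log2 4 as a stand-in for background this is at least 68.2-fold higher (adjusted p = 2.32e-06, for a gene that the filter kept through the old arrays alone). The gene has a single probe set, so no other probe set on the array reads it. Hs3st3b1, a relative that makes another form of the same sulfate, read 12.61, 12.49 and 12.39 in young and 12.78, 13.05 and 12.89 in old cells, and rose by 0.41 ± 0.093 (log2, SE, adjusted p = 0.0213). The other members of this family, Hs3st2, Hs3st3a1, Hs3st4 and Hs3st6, lay at 2.14 on all 6 arrays. Hs6st1 and Hs6st2, which place sulfate on glucosamine at another position, rose by 0.22 (adjusted p = 0.0143) and 0.50 (adjusted p = 0.0208). Hs6st3 lay at 2.14. Hs2st1, which sulfates the iduronic acid that Glce makes, read 13.42, 13.35 and 13.28 in young and 13.27, 13.38 and 13.37 in old cells, with overlapping ages and a change of -0.01 ± 0.061 (adjusted p = 0.910). One of its other probe sets had a change of -0.25 (adjusted p = 0.0173). Among these calls, that of Hs3st3b1 was lost without young replicates 2 or 3 or old replicates 2 or 3, that of Hs6st1 without old replicates 2 or 3, and that of Hs6st2 without young replicates 2 or 3 or old replicates 1 or 3.

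Sulf1 and Sulf2 are secreted sulfatases that take sulfate off finished chains outside the cell. Sulf2 read 12.48, 12.51 and 12.55 on young and 12.96, 13.02 and 13.03 on old arrays, and rose by 0.49 ± 0.048 (log2, SE, adjusted p = 0.00138). Its other kept probe sets had changes of 0.95 (adjusted p = 0.000724) and 0.02 (adjusted p = 0.847), so they did not give one size. Sulf1 read 11.94, 11.88 and 11.88 in young and 11.98, 12.36 and 11.75 in old cells, where the old arrays lay on both sides of the young ones (change 0.13, adjusted p = 0.555). In all, the roles from chain growth to sulfatases held 21 members, of which 13 were kept, 7 rose and 1 fell, with a median log2 change of 0.22. Among all named genes kept, 22.0% were higher and 18.5% lower, with a median of 0.01.

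The 6 kept chondroitin sulfate enzymes all passed, 5 higher and 1 lower in old cells, beside 22.0% and 18.5% of all named genes. Chsy3, a chondroitin synthase, read 7.03, 6.25 and 6.18 on the young arrays and 10.75, 10.89 and 10.95 on the old ones. This rise of 4.38 ± 0.24 (log2, SE, adjusted p = 0.000238) is 20.8-fold, and no array of one age came near the other. Chsy1, the synthase of the same family, read 13.45, 13.37 and 13.29 in young and 13.64, 13.63 and 13.54 in old cells and rose by 0.23 (adjusted p = 0.0335).

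The sulfotransferases of the chondroitin chain split. Chst11, which sulfates the GalNAc of chondroitin, read 12.44, 12.46 and 12.47 in young and 11.76, 11.88 and 11.64 in old cells. It fell by 0.70 on the log2 scale (adjusted p = 0.00173), and its second probe set had a change of -0.97 that did not pass (adjusted p = 0.119). Chst12, with the same reaction, read 5.44, 5.10 and 5.48 in young and 6.21, 6.45 and 6.38 in old cells, and rose by 1.01 ± 0.13 (SE, adjusted p = 0.00332). Chst14, which acts on the related dermatan sulfate, read 7.11, 6.17 and 6.97 and then 8.09, 7.86 and 8.36, a rise of 1.35 ± 0.28 (adjusted p = 0.0162). Young replicate 2 was the lowest array for it, and without that array the rise was 1.06 (adjusted p = 0.0115). Chst7, which sulfates that sugar at another position, rose from 9.70 ± 0.11 to 10.50 ± 0.046 (log2, SD, n = 3, adjusted p = 0.00104). Chst3, with the reaction of Chst7, lay at 2.14 on all arrays, as did Chst13 and Chst15. The call of Chst14 was lost without old replicates 1 or 3, and that of Chsy1 without any 1 array other than young replicate 1.

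Among the sulfotransferases of other glycans, Chst2, which sulfates GlcNAc, rose by 0.56 ± 0.090 (log2, SE, adjusted p = 0.00669), as did its other kept probe set, by 0.60. Chst10, which completes the HNK-1 sugar of neural adhesion proteins, read 5.83, 5.12 and 5.54 in young and 5.75, 4.96 and 5.20 in old cells, with no gap between the ages (change -0.19, adjusted p = 0.602). The remaining 5, Chst1, Chst4, Chst5, Chst8 and Chst9, were at 2.14.

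**Figure D3:**
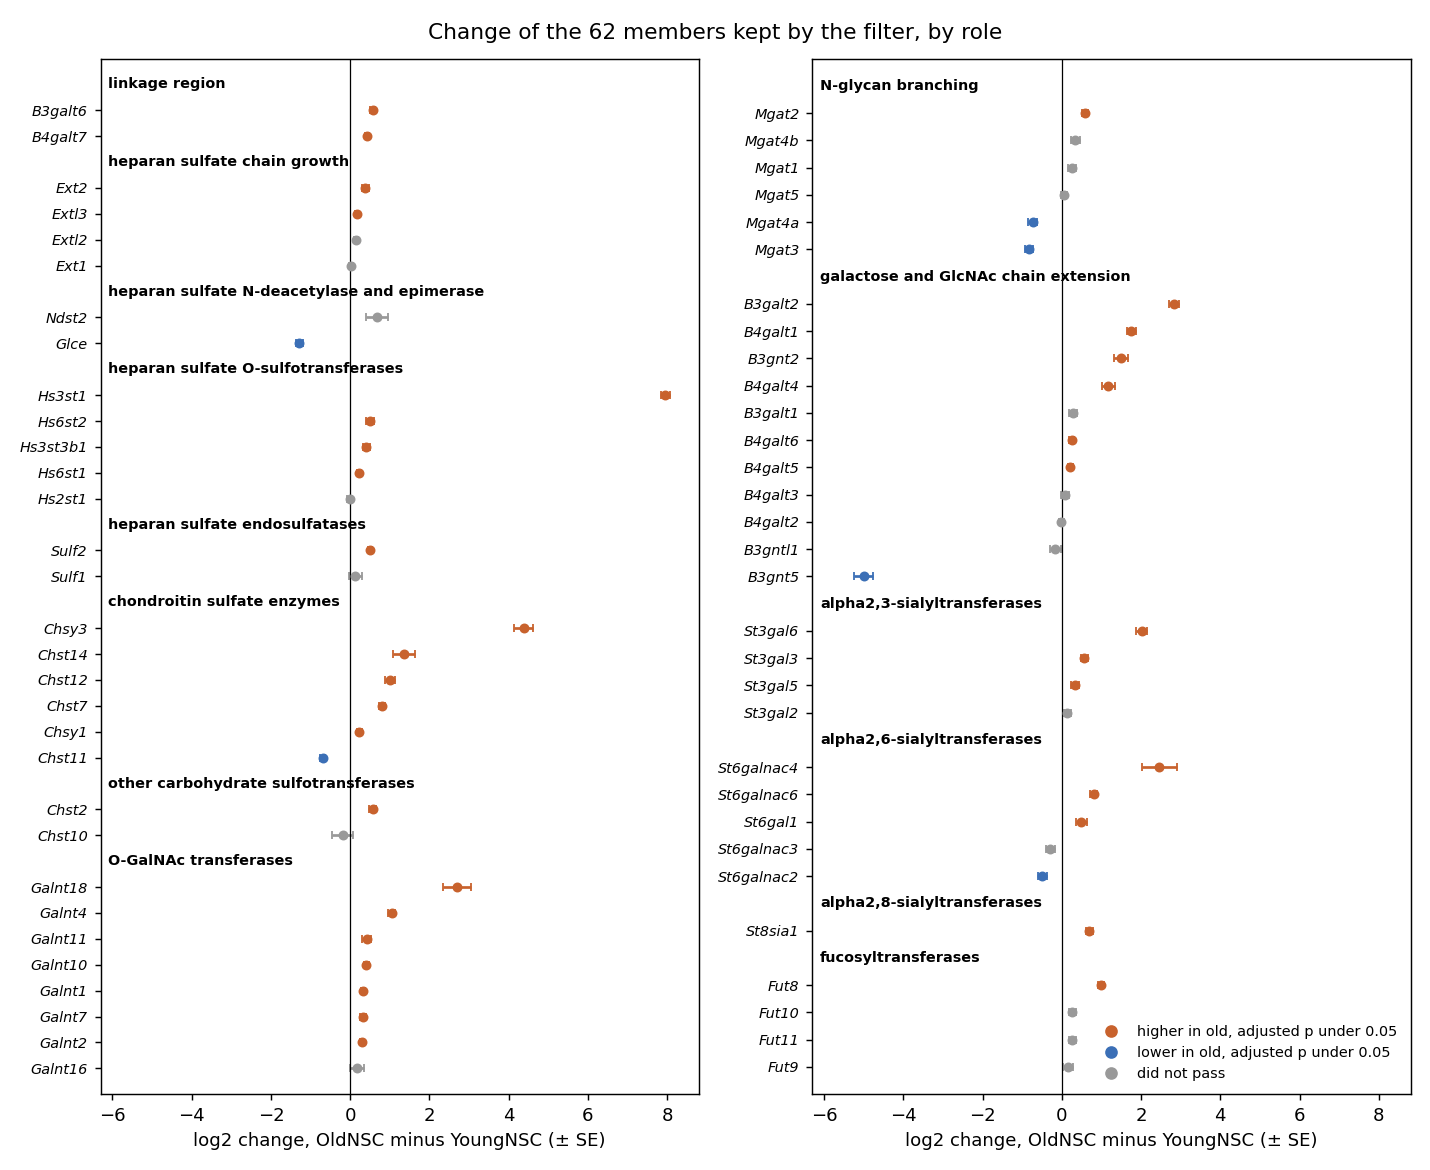
Log2 change from young to old cells (horizontal axis, point and SE from limma, 3 arrays per age) of each of the 62 kept members, listed by role; colours show whether the change passed an adjusted p of 0.05. Most points lie slightly to the right of 0, with Hs3st1 at 7.95, Chsy3 at 4.38 and B3gnt5 at -5.00 far from the rest. The sizes of Hs3st1 and B3gnt5 are uncertain, since the first lies at 2.14 on young and the second at 3.56 to 4.30 on old arrays.

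The O-GalNAc transferases start mucin-type O-glycans by placing GalNAc on serine or threonine, each with its own choice of protein sites. Of 18 members, 8 were kept, 7 rose and none fell, beside 22.0% and 18.5% of all named genes. Their median log2 change was 0.37. Galnt18 read 4.59, 3.73 and 4.91 on the young arrays and 6.70, 7.28 and 7.31 on the old ones, a rise of 2.69 ± 0.35 (SE, adjusted p = 0.00345) that starts close to the filter. Galnt4 read 11.086, 10.909 and 10.871 in young and 11.996, 11.917 and 12.082 in old cells, a 2.06-fold rise (adjusted p = 0.000656), and its other kept probe set rose by 2.21. Galnt1, Galnt2, Galnt7, Galnt10 and Galnt11 rose by 0.29 to 0.41 on the log2 scale. Galnt10 did not pass with the mean of its kept probe sets (0.31, adjusted p = 0.055), and its other kept probe set had a change of 0.21 (adjusted p = 0.342). Galnt16 had a change of 0.16 (adjusted p = 0.490), with overlapping ages. Of the 10 under the filter, 9 lay within 0.05 of the lowest value on all arrays, among them Galnt13, and Galntl6 reached 2.30. The call of Galnt7 was lost without young replicate 3 or old replicates 1 or 2, and that of Galnt11 without any 1 array other than young replicate 3.

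N-glycans gain their branches from the Mgat enzymes in a set order. Of 10 members 6 were kept, 1 rose and 2 fell, beside 22.0% and 18.5% of all named genes. Counts this small do not set the role apart from those shares. Mgat2, which opens the second branch, read 11.16, 11.18 and 11.07 in young and 11.75, 11.79 and 11.62 in old cells, and rose by 0.59 ± 0.066 (log2, SE, adjusted p = 0.00219). Mgat3, which adds the bisecting GlcNAc that stops further branching, read 8.60, 8.39 and 8.71 in young and 7.58, 7.80 and 7.83 in old cells, and fell by 0.83 (adjusted p = 0.00410). Mgat4a, which adds a further branch, read 9.59, 9.69 and 9.51 and then 8.91, 9.01 and 8.66, and fell by 0.74 (adjusted p = 0.00522). Its second probe set fell as well, by 0.57 (adjusted p = 0.0039). Each of these genes kept its ages apart. Mgat1, the first enzyme of the row, had a change of 0.27 (adjusted p = 0.0899), Mgat4b one of 0.34 (adjusted p = 0.0608) and Mgat5, which opens the branch that galectins bind, one of 0.06 ± 0.075 (SE, adjusted p = 0.569). Without young replicate 2, Mgat4b passed (change 0.22, adjusted p = 0.0334). Mgat4c, Mgat4d, Mgat4e and Mgat5b were at 2.14.

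Galactose and GlcNAc then extend the branches of proteins and lipids, through the B4galt, B3galt and B3gnt families. B4galt1, the main enzyme that puts galactose on N-glycans, read 9.18, 9.35 and 9.02 in young and 10.82, 10.92 and 11.07 in old cells, a rise of 3.37-fold (adjusted p = 0.000363). B4galt4, of the same family, read 7.53, 7.40 and 7.93 and then 8.57, 8.92 and 8.88, a rise of 1.18 ± 0.17 (log2, SE, adjusted p = 0.00490). B4galt5 and B4galt6, which make lactosylceramide, the root of the gangliosides, rose by 0.22 (adjusted p = 0.0241) and 0.25 (adjusted p = 0.0231). Both calls rest on every array but 1: that of B4galt5 held without young replicate 1 and that of B4galt6 without young replicate 2, and each was lost without any other 1 array. B4galt2 and B4galt3 had changes of -0.01 and 0.08, with overlapping ages.

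B3galt2, which adds galactose in the other linkage, read 5.23, 4.94 and 4.84 on young and 7.68, 7.91 and 7.91 on old arrays. The rise of 2.83 ± 0.13 (log2, SE, adjusted p = 0.000115) was matched by its other kept probe sets, at 2.62 and 2.56. B3galt1 had a change of 0.29 (adjusted p = 0.0796) with the old arrays all above the young, while 2 of its other kept probe sets passed, at 0.48 (adjusted p = 0.0307) and 0.47 (adjusted p = 0.00993). B3gnt2, the main enzyme that lengthens chains of repeated galactose and GlcNAc, read 8.30, 8.19 and 8.13 in young and 9.56, 9.48 and 10.06 in old cells, a rise of 1.49 ± 0.17 (adjusted p = 0.00216).

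B3gnt5 went the opposite way. It adds GlcNAc to lactosylceramide and so starts the glycolipids of the lacto and neolacto series, on which the Lewis X sugar can be carried. It read 8.91, 8.62 and 8.90 on the young arrays and 3.56, 3.56 and 4.30 on the old ones. Against the highest old array this is at least 22.8-fold lower (adjusted p = 0.000130), the largest fall among the kept members. Of 19 genes in this role 8 were under the filter, 7 of them within 0.05 of the lowest value throughout, while B3galt5 reached 2.53.

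Sialic acid caps the finished chains, and the St3gal, St6gal and St8sia families differ in the bond they make. Of 20 such members 10 were kept, 7 rose and 1 fell, beside 22.0% and 18.5% of all named genes. St3gal6, which caps galactose on proteins and lipids, read 8.60, 8.93 and 8.64 in young and 10.61, 10.65 and 10.96 in old cells, a rise of 4.05-fold (adjusted p = 0.000425), beside 2.22 on the log2 scale at its other kept probe set. St3gal3 rose by 0.57 (adjusted p = 0.00834). St3gal5, which makes GM3, the simplest ganglioside, read 10.31, 10.21 and 10.48 and then 10.55, 10.67 and 10.77, a rise of 0.33 (adjusted p = 0.0442). St3gal2 had a change of 0.14 (adjusted p = 0.249).

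St6galnac4 read 4.5, 3.4 and 5.1 in young and 6.6, 7.0 and 6.8 in old cells, a rise of 2.46 ± 0.44 (log2, SE, adjusted p = 0.0102). The young arrays spread widely around the filter level, and its second probe set gave 2.51 (adjusted p = 0.000839). St6galnac6, which acts on gangliosides, read 10.37, 10.29 and 10.43 in young and 11.11, 11.07 and 11.35 in old cells, a 1.75-fold rise (adjusted p = 0.00213). St6galnac2 fell by 0.49 (adjusted p = 0.0201), and St6galnac3 had a change of -0.29 (adjusted p = 0.0922). St6gal1, which caps N-glycans, rose by 0.49 (adjusted p = 0.0435). The call of St3gal5 was lost without any 1 array other than young replicate 3, that of St6gal1 without any other than young replicate 1, and that of St6galnac2 without young replicate 3 or old replicate 3. St6galnac3 passed without young replicate 2 (adjusted p = 0.00658).

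St8sia1 turns GM3 into GD3, a ganglioside that is abundant in neural stem cells. It read 11.95, 12.02 and 11.88 on young and 12.76, 12.49 and 12.66 on old arrays, a rise of 0.69 ± 0.086 (log2, SE, adjusted p = 0.00304). Its other kept probe sets rose by 1.55 and 2.72, so the direction was shared and the size was not. St8sia2 and St8sia4 make polysialic acid, the coat of migrating neuroblasts. St8sia2 lay at 2.14 on every array, and St8sia4 read 2.14, 2.14 and 2.27 in young and 4.80, 2.77 and 5.42 in old cells, under the filter and untested. Of the other sialyltransferases under the filter, St6galnac5 was highest, with 3.35 on a young array.

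Fucose ends the row. Fut8, which adds the core fucose of N-glycans, read 12.210, 11.998 and 12.140 in young and 13.005, 13.186 and 13.125 in old cells, a 1.99-fold rise (adjusted p = 0.000778). Fut9, the enzyme that makes Lewis X in the brain, read 10.70, 10.81 and 10.37 and then 10.85, 10.85 and 10.65, with overlapping ages and a change of 0.16 ± 0.13 (log2, SE, adjusted p = 0.387). Fut10 and Fut11 had changes of 0.26 each (adjusted p = 0.0587 and 0.0671), with the old arrays above the young. Fut10 passed without old replicate 3 and Fut11 without young replicate 1, and both did with each array centred on its median or with the trend and robust options of eBayes. With the mean of its kept probe sets the change of Fut11 was 0.58 (adjusted p = 0.00709), while Fut10 did not pass with that mean. The other kept probe sets of Fut10 had changes of -0.03 (adjusted p = 0.865) and 0.04 (adjusted p = 0.558). Fut1, Fut2, Fut4, Fut7 and Fut4-ps1 were within 0.05 of 2.14 throughout.

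**Figure D4:**
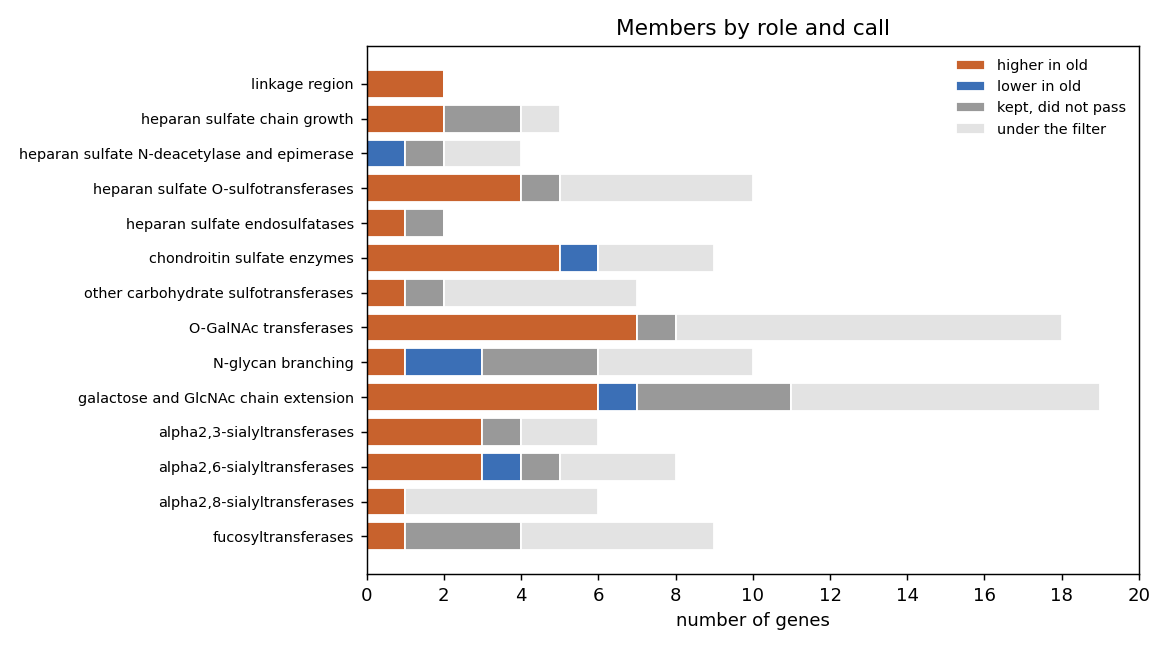
Number of genes (horizontal axis) in each of the 14 roles, split into members higher in old cells, lower in old cells, kept by the filter but not past the threshold, and under the filter. Of 115 members 53 lie under the filter, and the O-GalNAc transferases hold the most of these, 10 of 18.

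Of the 53 members under the filter, 45 lay within 0.05 of the lowest value on all 6 arrays, and St8sia4 alone passed log2 4 on any array. The share of members kept, 53.9%, was close to that of all named genes, 55.2%. Where a kept member had further kept probe sets, they mostly pointed the same way. Of the 27 members with more than 1 kept probe set 18 were called, all other kept probe sets of these 18 shared the sign, and for 15 of them at least 1 other passed as well. No called member had another probe set called in the opposite direction. Probe sets of a gene read the same RNA on the same arrays, so their agreement does not replicate the age difference. Over all kept probe sets 36.6% were called in either direction, and agreement within genes was not counted outside the members.

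**Figure D5:**
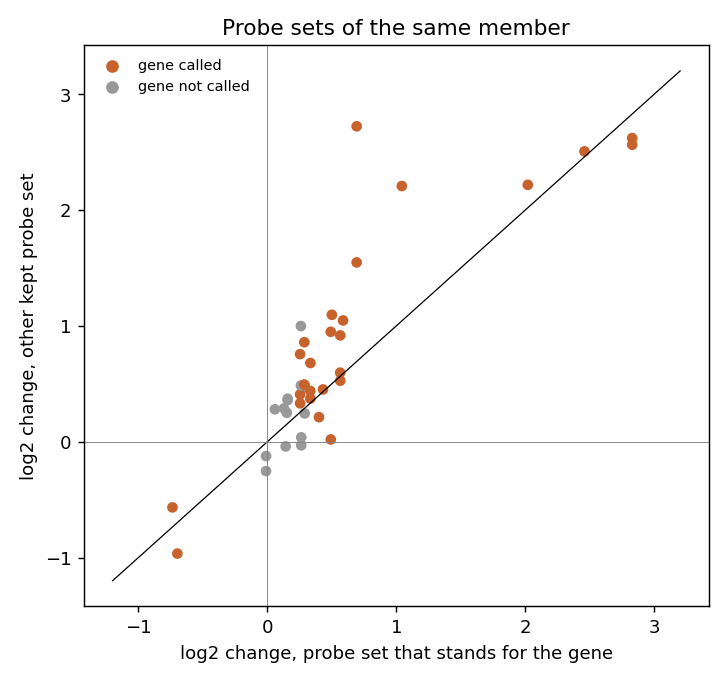
Log2 change from young to old cells at the probe set that stands for a member (horizontal axis) against that of each other kept probe set of the same gene (vertical axis), with the line of equal change; 41 probe sets of 27 genes. For 39 of the 41 the sign is shared, and both exceptions belong to genes that were not called.

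Genes around these enzymes were followed as 13 further lists, 97 genes on the array without the members themselves. Of the 80 kept, 39 rose and 11 fell in limma, to be read against the 22.0% and 18.5% over all named genes. The counts of each list below are to be read against the same shares, which some of them lie near. Among the core proteins that carry heparan sulfate 4 of 11 rose and 3 fell. The syndecan Sdc2 rose from 11.60, 11.55 and 11.73 to 12.80, 12.97 and 13.05, or 2.49-fold (adjusted p = 0.000412), and the glypican Gpc4 rose 2.04-fold (adjusted p = 0.00102). Gpc1 fell by 0.51 on the log2 scale (adjusted p = 0.00177), and the basement membrane collagen Col18a1 fell at least 4.10-fold, from 5.77, 6.04 and 6.30 to 2.14, 2.14 and 2.40 (adjusted p = 9.70e-05). Col18a1 passed the filter through its young arrays alone, and so had to differ.

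Of the 7 kept core proteins of chondroitin sulfate 3 rose and 2 fell, beside 22.0% and 18.5% of all named genes. The proteoglycan Tgfbr3 rose from 2.14, 2.46 and 2.14 to 6.65, 6.80 and 6.61, at least 6.43-fold (adjusted p = 1.82e-05), but it passed the filter through its old arrays alone and so had to differ. Cspg4, which marks oligodendrocyte progenitors, had a change of -1.99 (adjusted p = 0.000184). Of the other enzymes of chondroitin and dermatan sulfate 3 of 6 rose and none fell, with Ust at 0.50 and Dsel at 0.52. In the linkage step the kinase Fam20b rose by 0.36 (adjusted p = 0.00762), and B3gat3 did not pass (0.14, adjusted p = 0.181). Breakdown enzymes of heparan sulfate in the lysosome rose in 4 of 5 and fell in none, with Naglu at 1.63 (adjusted p = 0.0132) and Gusb at 0.62 (adjusted p = 0.000708).

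Supply genes moved in both directions, where 22.0% of all named genes were higher and 18.5% lower. Of 10 genes of nucleotide sugar supply 7 rose and 1 fell. Galt, which feeds galactose into UDP-galactose, read 7.45, 6.26 and 7.23 in young and 9.90, 10.18 and 10.22 in old cells, a rise of 8.71-fold (adjusted p = 0.00177). Gfpt2, which starts the path to UDP-GlcNAc, rose 2.35-fold (adjusted p = 0.000152). Ugdh, which makes the glucuronic acid donor of both chains, fell by 0.62 on the log2 scale (adjusted p = 0.000529), from 12.53, 12.55 and 12.48 on young arrays to 11.90, 11.90 and 11.90 on old ones. Of 6 genes of sulfate donor supply 2 rose and 1 fell, with the sulfate transporter Slc26a2 at 0.58 and Papss1, which makes the donor, at -0.29 (adjusted p = 0.0028 and 0.00887). Of 7 genes of sialic acid supply and removal 3 rose and 1 fell, among them Gne, the first enzyme of sialic acid synthesis (1.16), and Neu3, the sialidase of gangliosides (2.81, adjusted p = 0.000597).

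Of 9 kept genes of fucose supply and protein O-fucose 3 rose and 1 fell, beside 22.0% and 18.5% of all named genes. The fucose kinase Fcsk had a change of -0.92 and the Notch-modifying Lfng one of 0.26. Of 5 kept genes listed for the glycolipid core 3 rose, all of them breakdown genes: Gm2a by 0.80, Glb1 by 0.49 and Hexa by 0.34. The 1 that fell was Ugcg, which makes the glucosylceramide that brain gangliosides start from, at -0.33 (adjusted p = 0.00780). All 3 kept genes of mucin-type cores rose, among them C1galt1 by 0.58. Of 8 N-glycan trimming genes 3 rose and none fell, with Man2a1 at 1.88 (adjusted p = 0.000462). B3gat1, which makes the HNK-1 sugar together with Chst10, read 10.90, 10.58 and 10.65 in young and 9.38, 9.59 and 9.40 in old cells, a fall of 2.39-fold (adjusted p = 0.000956).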

How the data were processed

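The authors deposited 1 log2 value for each probe set and array, from GCRMA according to the submitters' processing notes. RNA was extracted with NucleoSpin XS and labelled with the NuGEN Encore Biotin module, per the labels' protocols. The sources used here give no GCRMA version and no genome build, and the range of the values shows the log2 scale. Gene names are those of the platform annotation where it gives 1 symbol, and the Entrez identifiers of all 115 members led to the same symbol in RefSeq (GRCm38.p6). Another 3 probe sets that name a member beside another gene were left out.

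Control probe sets (64) were removed, and the rest, if above log2 4 on 3 or more arrays, were fitted in R 4.3.3 with limma 3.58.1 (lmFit, then eBayes, two-sided, old against young, all 6 arrays, no covariate), with adjustment over all 19858. A gene whose mean at one age lay under log2 4 has a lower bound on its fold, set against log2 4, or against its highest array of that age where that is above log2 4. Precision is limited by having 3 arrays per age. The fit was tested on simulated data with independent noise, few changed probe sets, all of them raised, and no common lowest value. That test therefore does not cover levels near the lowest value or changes as widespread as those here. Members and lists were chosen with earlier results of these data known. Any member could be named. Values on all arrays were given for called members with a log2 change of at least 1, for the brightest member of a role and for relatives of changed genes, and up to 4 genes of each further list, those with the smallest p, could be named. Some further values, such as those of genes near the threshold, were added after the values were seen. Alternatives were other filters, scalings, thresholds, eBayes options, array weights, a replicate block, leaving out each array and averaging probe sets. Python 3.11.15 with matplotlib 3.10.9 drew the figures.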

Additional observations from a re-analysis of the deposited data

How the results depend on the processing

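No called member changed sign in any alternative. With the threshold left at an adjusted p under 0.05, 27 of 43 called members kept their call in each of the up to 16 settings run for a member, among them 12 of the 14 with a log2 change of at least 1; Chst14 (adjusted p = 0.0768) and St6galnac4 (adjusted p = 0.0548) lost theirs with no filter, as did Ext2, Hs3st3b1, Hs6st2, Chsy1, Galnt7, Galnt11, St3gal5, St6gal1 and St6galnac2. Galnt11 lost its call also with the filter at log2 3, quantile normalization, centring and array weights, Extl3 with centring, St3gal5 with array weights and Galnt10 with the mean of its kept probe sets. Of the members not called, Extl2, B3galt1, Mgat4b, St6galnac3, Fut10 and Fut11 passed under some of these settings. Leaving out 1 array gave 26 to 34 members higher, 5 to 7 lower and a median change of 0.30 to 0.37, and 5010 to 6838 probe sets called, 2768 to 3961 higher and 2177 to 3301 lower, the last lowest without old replicate 2. For the further lists it gave 32 to 37 genes higher and 8 to 10 lower.

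With no filter the members' median change was 0.0040, since members at the lowest value enter, and with the mean of a gene's kept probe sets it was 0.40. At an adjusted p under 0.01, 3777 probe sets were called (2148 higher, 1629 lower) and 23 members were higher. With a log2 change of at least 1 required, 2162 probe sets passed (1258 higher, 904 lower), with 12 members higher and 2 lower, and 11 and 3 genes of the further lists.

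The labels do not say whether the replicate numbers pair the samples. Same-numbered deviations correlated at -0.16, -0.11 and 0.16, and differently numbered ones at -0.22 to 0.25. With 3 arrays per age, whose deviations depend on each other, these values cannot decide it. With the replicate block 30 members were higher and 6 lower, and 9 of the 43 calls were lost (Extl3, Hs3st3b1, Hs6st1, Chsy1, Galnt7, Galnt11, B4galt5, B4galt6 and St6gal1), while Ndst2 (adjusted p = 0.0116) and Fut11 (adjusted p = 0.0402) passed. Members not called whose sign turned were Ext1 (-0.026 to 0.039 on leaving out 1 array, below 0 without young replicate 2 or old replicate 2), Hs2st1 (0.0055 with array weights, and -0.045 to 0.025 on leaving out 1 array), Sulf1 (-0.038, without old replicate 2, to 0.27), Mgat5 (-0.00083, without young replicate 3, to 0.11) and B4galt2 (0.060 with quantile normalization, and -0.052 to 0.035 on leaving out 1 array). Alternatives for the further lists, and other filters for the count of members whose ages do not overlap, were chosen after seeing the data. Signal near the lowest value limits what can be said of the 53 members under the filter.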
